A study of Mus musculus with 15 samples.

Results

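The genes described here encode subunits of the mitochondrial respiratory chain and ATP synthase, measured by RNA-seq in 15 mouse livers. They were chosen by symbol: the Nduf genes of complex I, Sdha to Sdhd of complex II, the Uqcr genes of complex III, the Cox4 to Cox8 genes of complex IV and the Atp5 genes of complex V. An expected count of at least 10 in at least 3 libraries was also required. The name patterns matched 85 of the 20325 genes listed, and 79 of these reached the count minimum. All 79 were among the 12377 genes tested. They comprised 37 genes of complex I, 4 of complex II, 8 of complex III, 13 of complex IV and 17 of complex V.

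The livers came from male C57BL/6J mice killed at 19 weeks of age, with 5 groups of 3 animals. Germ-free (GF) mice had no microbes, conventionally raised (ConvR) mice acquired a microbiota from birth, and conventionalized (ConvD) mice were germ-free until a single gavage of cecal contents from ConvR chow-fed donors at 15 weeks, followed by 4 weeks of colonization. From 3 weeks of age the mice ate either chow, with 23.7% of energy from fat, 53.2% from carbohydrate and 23.1% from protein, or HF/HS, a diet rich in fat and sucrose, with 44.6%, 40.6% and 14.8%. The groups were GF, ConvR and ConvD on chow and GF and ConvR on HF/HS, and no group was ConvD on HF/HS. All diets were sterilized and all groups carried the same wild-type genotype. Mice were housed by colonization status and diet, so that isolator or cage cannot be told apart from group.

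The respiratory chain sits in the inner mitochondrial membrane. Complex I takes electrons from NADH and complex II takes them from succinate. Both pass them to ubiquinone, from which complex III moves them to cytochrome c and complex IV to oxygen. Complexes I, III and IV pump protons, and complex V, ATP synthase, uses the gradient to make ATP. Liver mitochondria use the chain to oxidize fuel from fatty acids, sugars and amino acids. Most subunits are encoded in the nucleus, and the few encoded in mitochondrial DNA were not analysed here.

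Promoters of these genes are known for recognition sequences of the nuclear respiratory factors NRF1 and GABP (NRF2) and of YY1. RefSeq promoter sequences on GRCm38.p6, from 250 bases before to 50 after the annotated start, were matched to 66 of the 79 genes, giving 72 promoters of 300 bases each. The gene models behind the expression values were of build mm9, so the 2 were joined by symbol only. The 4 promoters below belong to genes whose values changed with diet or colonization and are shown from 250 bases before to 10 after the start, 5′ to 3′. Sdha lies on the minus strand at chr13:74350231-74350490, Cox6a1 on the minus strand at chr5:115348949-115349208, Atp5e on the minus strand at chr2:174464092-174464351 and Cox8a on the minus strand at chr19:7217607-7217866. Capitals mark a match to GCGCA, any base, then GCGC (NRF1) or to CCGGAAG or its reverse complement CTTCCGG (GABP).
Sdha: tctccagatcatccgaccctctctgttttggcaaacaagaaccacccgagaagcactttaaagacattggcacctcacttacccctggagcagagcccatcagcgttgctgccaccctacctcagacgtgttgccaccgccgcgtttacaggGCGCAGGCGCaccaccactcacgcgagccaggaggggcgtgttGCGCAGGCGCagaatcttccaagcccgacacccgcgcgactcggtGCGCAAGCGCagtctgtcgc
Cox6a1: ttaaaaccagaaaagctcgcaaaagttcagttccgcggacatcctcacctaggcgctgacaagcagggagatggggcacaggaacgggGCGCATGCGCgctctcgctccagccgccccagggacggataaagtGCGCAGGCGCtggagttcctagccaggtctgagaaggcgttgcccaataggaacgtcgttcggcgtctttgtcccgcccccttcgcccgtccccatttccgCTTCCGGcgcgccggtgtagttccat
Atp5e: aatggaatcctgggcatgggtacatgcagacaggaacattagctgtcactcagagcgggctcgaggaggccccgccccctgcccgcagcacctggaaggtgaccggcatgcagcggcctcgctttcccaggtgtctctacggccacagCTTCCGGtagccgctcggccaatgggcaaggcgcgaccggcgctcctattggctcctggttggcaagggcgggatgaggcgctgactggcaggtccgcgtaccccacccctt
Cox8a: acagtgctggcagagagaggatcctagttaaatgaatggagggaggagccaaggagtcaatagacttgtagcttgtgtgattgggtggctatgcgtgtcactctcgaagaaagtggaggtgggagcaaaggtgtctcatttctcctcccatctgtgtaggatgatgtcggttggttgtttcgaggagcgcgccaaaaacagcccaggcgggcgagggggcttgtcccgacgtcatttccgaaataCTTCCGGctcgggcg

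The Sdha promoter held 3 NRF1 matches, which began at -98, -55 and -10 from the start. The Cox6a1 promoter held 2 NRF1 matches at -162 and -117 and a GABP match at -16. The Atp5e promoter held a single GABP match at -102, and the Cox8a promoter held GABP matches at -5 and at 33, the latter beyond the stretch printed. Both strands were searched, the start was counted as 1 with no position 0, and the third motif searched was ATGGCGG (YY1). None of the 3 motifs contains another.

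NRF1 matches were found in 25.0% of the respiratory chain promoters, against 4.60% of all 32841 promoters in the table and 9.6% of the 12631 promoters of genes tested here. GABP matches were found in 22.2%, against 8.86% and 16.7%. YY1 matches, which can coincide with a start codon in the bases after the start, were found in 18.1%, against 4.05% and 7.7%. At least 1 motif was present in 55.6% of the respiratory chain promoters, 15.46% of all promoters and 29.5% of those of tested genes. GC content was 57.8%, 53.8% and 60.2%. Of the 20 genes called in any comparison below, 17 had a promoter and 10 of these held a motif. Of the 49 uncalled genes with a promoter, 27 held a motif. A match describes letters only and is not a binding site.

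The respiratory chain genes were short and abundant. Their length ranged from 292 to 4933 bases with a median of 679, against a median of 2800 over all genes tested. TPM, a measure of transcript abundance scaled by gene length and library total, allows levels to be compared between genes. The median of the members' mean TPM was 205, against 18.6 for the 2630 other tested genes of like length (453 to 1701 bases, the 10th to 90th percentile of the members) and 7.83 for all genes tested. By mean TPM, 70 of the 79 genes were among the 1000 highest of all genes and 33 among the 500 highest. Together they made up 1.51% to 2.52% of all TPM in a library.

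Complex V and complex I held the largest summed levels. In the median library, complex I summed to 6491 TPM, complex V to 6277, complex IV to 4045, complex III to 2724 and complex II to 985. Atp5b, the catalytic beta subunit of ATP synthase, had the highest mean level of all at 1005 TPM, followed by Ndufa4 at 841 TPM. Ndufa4 is grouped with complex I by name and is now regarded as a subunit of complex IV. Uqcrq led complex III with 602 TPM and Cox4i1 led complex IV with 557 TPM. The 4 subunits of complex II lay close together, from Sdhc, a membrane anchor, with 183 TPM to Sdha, the flavoprotein that oxidizes succinate, with 298 TPM.

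Levels within a complex were uneven. The iron-sulfur core subunit Ndufs1 had 75.8 TPM and the NADH-binding Ndufv1 135 TPM, below the complex I median of 139 TPM. Among complex III genes the catalytic Rieske protein Uqcrfs1 was lowest, with 198 TPM. Genes differed in length as well as level: the shortest were Ndufa3 (349 bases), Sdhb (1073), Uqcr11 (436), Cox7a1 (366) and Atp5k (292), and the longest Ndufs1 (2744), Sdha (2859), Uqcrc2 (1882), Cox4nb (4933) and Atp5a1 (2431), in complexes I to V. Many of these genes have processed pseudogenes in the mouse genome, and RSEM divides reads among near-identical copies, so that values of single genes carry that uncertainty.

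For subunits with tissue isoforms, the isoforms known from liver were the abundant ones. Cox4i1 ranged from 410 to 737 TPM over the 15 livers and Cox4i2, the lung isoform, from 0 to 0.250. Cox6a1 ranged from 380 to 723 TPM and the heart and muscle isoform Cox6a2 from 0 to 0.330. Cox6b1 had 276 to 532 TPM and the testis isoform Cox6b2 0 to 1.17. Cox8a had 324 to 542 TPM, Cox8b 0 to 0.630 and Cox8c was listed at 0 in all 15 libraries.

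A muscle isoform and a hypoxia-linked paralog passed the count minimum at low levels. Cox7a1, the heart and muscle isoform of subunit 7a, had 1.69 to 8.64 TPM beside 174 to 280 for Cox7a2, and its median share of the set with Cox7a2l was 0.941%. Ndufa4l2, the hypoxia-induced paralog of Ndufa4, had 0.520 to 2.46 TPM beside 633 to 1034. CPM denotes counts scaled to the library total, with that total adjusted by a normalization factor (TMM) for each library. Summed CPM of 8 skeletal muscle markers was 0 to 0.259 in a library. The 3 genes for subunit c of ATP synthase, which encode the same mature protein, were all expressed, with a median share of 62.9% for Atp5g3, 19.6% for Atp5g1 and 17.0% for Atp5g2.

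**Figure D1:**
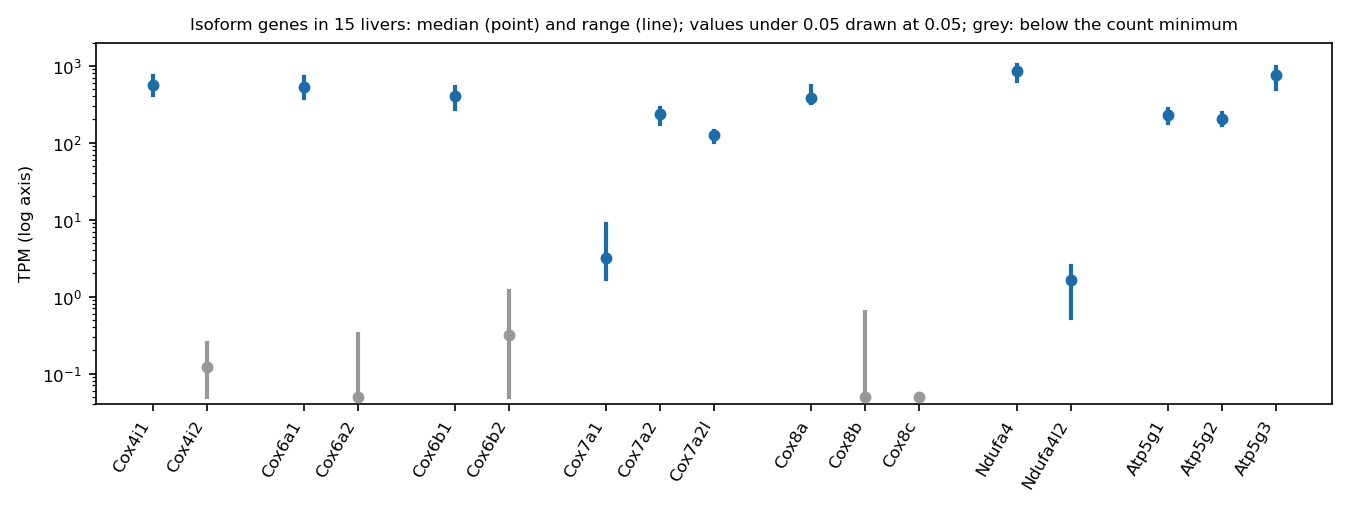
Levels of isoform genes of the respiratory chain in the 15 livers, in TPM on a log axis. Points are medians and lines the lowest to highest library, grey marks genes below the count minimum, and values under 0.05 are drawn at 0.05. Cox7a1 and Ndufa4l2 lie far below their paralogs, with medians of 3.20 and 1.62 TPM.

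The count minimum left out 6 matched genes, Cox4i2, Cox6a2, Cox6b2, Cox7b2, Cox8b and Cox8c. The nearest to passing was Cox6b2, with at most 5.00 expected counts in a library. The nearest to failing were Cox7a1, with 10 or more counts in 9 libraries and a range of 5.00 to 26.0, and Ndufa4l2, with 10 or more in 13 libraries and at least 6.00 in each. The patterns also took in 4 genes that are not subunits. Cox4nb (now Emc8) belongs to a complex of the endoplasmic reticulum, Atp5sl (Dmac2) takes part in the assembly of complex I, Atp5s (Dmac2l) is its relative, and Cox7a2l takes part in joining complexes into supercomplexes. The edgeR test called Cox4nb, Atp5s and Atp5sl in no comparison, and Cox4nb was called once the trend with gene length was removed, as given below.

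The libraries held 14737578 to 21794811 expected counts. Summed CPM of 8 hepatocyte markers was 61913 to 129073, against at most 710 for Kupffer cell markers, so that the defining markers of liver were abundant. ConvR chow mice 1 and 2 stood apart from the rest: Lcn2, an acute phase gene, had 1073 and 1453 CPM there, 75.2 in ConvR chow mouse 3 and 1.31 to 20.1 elsewhere. Neutrophil markers summed to 27.7 and 41.6 CPM in those 2 livers, and their hepatocyte marker sums of 65068 and 61913 CPM were the lowest, all others being at least 85423. Their part in the results was not tested beyond leaving the libraries out. Tests were edgeR quasi-likelihood F tests on counts, and a gene was called at an adjusted p below 0.05 over all genes tested. Replicates were separate mice. In whole liver, fewer cells of a type and less RNA per cell cannot be told apart.

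On chow, respiratory chain transcripts had their highest mean in GF livers. The mean log2 CPM over the 79 genes was 6.499, 6.394 and 6.547 in GF chow, 6.095, 6.200 and 6.416 in ConvR chow, and 6.268, 6.337 and 6.241 in ConvD chow. ConvR chow mouse 3 lay within the GF range and mice 1 and 2 lay below every GF library. On HF/HS the means were 6.303, 6.365 and 6.340 in GF and 6.339, 6.323 and 6.270 in ConvR livers. The like-length genes had group means between 3.715 and 3.854, with the 2 highest in GF chow and ConvR chow.

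**Figure D2:**
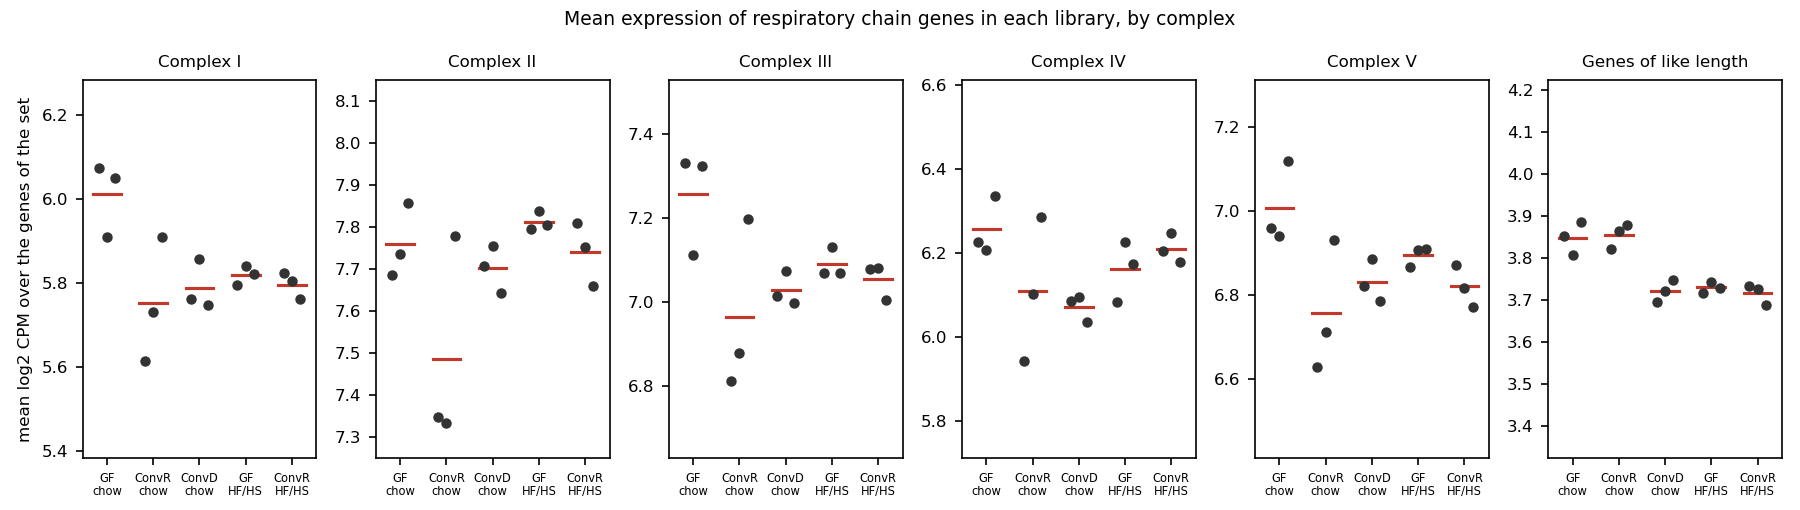
Mean log2 CPM of the genes of each complex, and of the other tested genes of like length, in every library (points) with the group mean (red bar); all panels span 0.9 log2 units. ConvR chow mice 1 and 2 are the 2 lowest points of complexes I, II, III and V. GF chow lies high in complexes I, III and V, as do GF and ConvR chow among genes of like length.

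The first question was what a lifelong microbiota changes on chow. The genes that fell in ConvR relative to GF livers were Ndufb3, an accessory subunit of the complex I membrane arm, Ndufa10, another complex I accessory subunit, and Sdhb, the iron-sulfur subunit of complex II. None was higher, where 2.55% of all genes were. The 3 of 79 (3.80%) compare with 2.17% of all genes tested called lower, and with 2.21% of genes of like length, so the share lay near the background.

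Ndufb3 had 70.3, 44.1 and 46.9 CPM in GF chow and 31.5, 33.3 and 41.2 in ConvR chow, a log2 fold change of -0.60 ± 0.15 (SE; adjusted p = 0.0383). Ndufa10 had 99.0, 106 and 110 CPM in GF and 71.7, 77.9 and 92.2 in ConvR chow, -0.38 ± 0.10 (adjusted p = 0.0437). Sdhb had 189, 177 and 206 CPM in GF and 120, 122 and 170 in ConvR chow, -0.47 ± 0.12 (adjusted p = 0.0450). The 2 groups did not overlap for any of these genes, and in Ndufa10 the 3 ConvR chow livers were the lowest of all 15.

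Beyond these 3 calls the direction was broadly shared. The fold change was negative for 75 of 79 genes, with a median of -0.25 and a range of -0.64 to 0.64, against a median of -0.06 for like-length genes and -0.003 for all. It was negative for 1538 of the 2630 like-length genes and 6254 of all 12377 genes. All 17 complex V genes and all 8 complex III genes were negative, with medians of -0.29 and -0.31. The unadjusted edgeR p was below 0.05 for 44 genes, all lower. At that p 433 of the like-length genes were lower, and of all genes 1507 were lower and 1388 higher. CPM ranges did not overlap for 14 genes, all lower, where 9.74% of all genes had ranges apart in that direction and 9.82% in the other. Uqcrc1, a core protein of complex III, missed the threshold with -0.45 ± 0.12 (adjusted p = 0.0524). The 4 positive genes were Cox7a1 (0.64 ± 0.38), Ndufa3 (0.07 ± 0.13), Sdhd (0.02 ± 0.13) and Cox7a2l (0.01 ± 0.06), none called.

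The size of this shift depended on ConvR chow livers 1 and 2. Without both, which left 1 ConvR chow library, the median was -0.08, beside -0.01 for like-length genes. With the trend of each library's log2 CPM with gene length removed, no gene was called (median -0.14). In that fit 2.80% of all genes were higher and 1.90% lower. Without ConvR chow mouse 3, 38 genes (48.1%) were lower and the median was -0.38, where 6.95% of all genes were lower. Leaving out GF chow mouse 2 gave 20 lower (25.3%), against 2.34% of all genes. Leaving out GF chow mouse 1 or 3 gave 1 each, where 117 and 301 of all genes were lower.

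Colonization for 4 weeks, the second comparison, gave more calls. In ConvD against GF livers on chow 11 genes were lower and none was higher. They were 7 genes of complex I, and Uqcrq of complex III, Cox8a of complex IV, and Atp5e and Atp5j2 of complex V. No complex II gene was called. The 13.9% called lower compare with 3.34% of all genes tested (2.25% were higher) and 8.25% of genes of like length.

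Atp5e encodes the epsilon subunit in the central stalk of ATP synthase. It had 145, 92.4 and 113 CPM in GF chow and 66.8, 73.5 and 66.9 in ConvD chow, or 117 ± 26.6 against 69.1 ± 3.86 (SD, n = 3), a log2 fold change of -0.76 ± 0.13 (edgeR adjusted p = 0.00823). The ConvR chow livers, with 81.5, 99.3 and 92.1 CPM, lay above the ConvD livers and overlapped the GF range. All 6 GF and ConvR chow livers were above all 9 others for this gene.

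Ndufa2, an accessory subunit of the NADH-oxidizing module of complex I, showed the same pattern. It had 102, 62.0 and 74.2 CPM in GF chow, 52.4, 55.9 and 66.0 in ConvR chow and 45.5, 46.6 and 43.8 in ConvD chow. The ConvD against GF change was -0.81 ± 0.14 (adjusted p = 0.00954), the largest fall among the respiratory chain genes in this comparison. Ndufb2, a membrane arm accessory subunit, had 40.3, 31.7 and 37.2 CPM in GF and 24.2, 24.5 and 23.8 in ConvD chow (-0.59 ± 0.11, adjusted p = 0.0122), again with no overlap.

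The other calls were smaller. Cox8a, a small transmembrane subunit of complex IV, had 126, 143 and 177 CPM in GF and 92.4, 107 and 109 in ConvD chow (-0.54, adjusted p = 0.0299). Ndufs7 and Ndufs8, core iron-sulfur subunits of complex I that pass electrons towards ubiquinone, changed by -0.46 (adjusted p = 0.0381) and -0.31 (0.0306). Ndufc1, Ndufb11, Ndufs4, Uqcrq and Atp5j2 changed by -0.42, -0.47, -0.31, -0.47 and -0.54, with adjusted p between 0.0224 and 0.0488. The positive genes with the smallest p were Ndufa12 (0.16 ± 0.14), Cox7a1 (0.40 ± 0.38), Sdhd (0.11 ± 0.13) and Ndufa3 (0.10 ± 0.13), none called.

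Over the 79 genes, 67 fold changes were negative and the median was -0.20, beside -0.14 for like-length genes. Of the 2630 like-length genes 1834 were negative, and of all 12377 genes 6310. CPM ranges did not overlap for 34 genes, all lower, against 14.8% of all genes lower and 14.0% higher. When the trend of each library's log2 CPM with gene length was removed, 2 genes were called, Ndufa2 (-0.51) and Atp5e (-0.41), and the median was -0.02. In that fit 1.35% of all genes tested were called lower and 0.970% higher. The count varied from 2 to 24 as single libraries were left out, being 2, 3 and 2 without ConvD chow mice 1, 2 and 3, where 0.398%, 0.606% and 0.654% of all genes were lower, and 24 (30.4%) without GF chow mouse 2, where 4.70% were.

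ConvD and ConvR livers on chow, which differ in when colonization began, had no called respiratory chain gene, where 2.20% of all genes were called higher and 3.30% lower. The edgeR test gave an unadjusted p below 0.05 for 5 genes higher and 5 lower, where 1369 and 1529 of all 12377 genes were. The DESeq2 Wald test called 2 higher and 1 lower, against 4.25% and 4.41% of all genes. The median was 0.04, beside -0.08 for like-length genes, and 51 genes were positive. Of the 2630 like-length genes 948 were positive, and of all 12377 genes 6057. CPM ranges did not overlap for 6 genes higher and 8 lower, against 15.1% of all genes each way. The smallest p higher belonged to Sdha (0.38 ± 0.12, adjusted p = 0.0678), Ndufa10 (0.30 ± 0.10, 0.0817), Atp5sl (0.24 ± 0.09, 0.108) and Atp5f1 (0.23 ± 0.10, 0.180). Those lower were Cox8a (-0.41 ± 0.13, 0.0725), Atp5e (-0.40 ± 0.13, 0.0806), Ndufb2 (-0.34 ± 0.11, 0.0817) and Ndufs8 (-0.21 ± 0.07, 0.111). Without ConvR chow mice 1 and 2 the median was -0.14, and without mouse 3 it was 0.16 with 9 genes (11.4%) higher, against 6.09% of all genes. With the length trend removed, Ndufa10 (0.36), Ndufb10 (0.33) and Ndufv3 (0.34) were higher, against 1.54% of all genes higher and 3.20% lower.

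**Figure D3:**
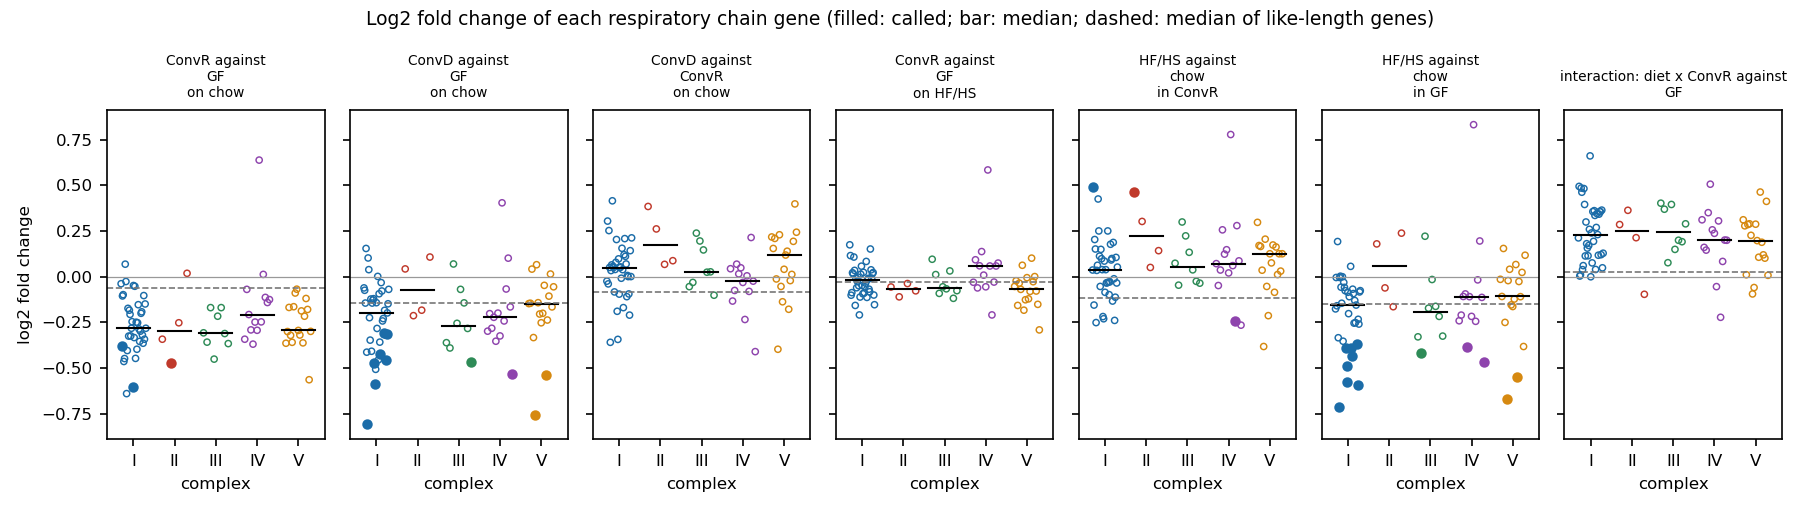
Log2 fold change of each respiratory chain gene by complex in the 7 comparisons. Filled points are called genes, black bars medians of a complex and dashed lines the median of like-length genes. Most called genes are lower ones in ConvD against GF on chow (11) and in HF/HS against chow in GF livers (13). Complex I, with 37 of the 79 genes, holds 7 and 8 of these.

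The HF/HS diet in GF livers gave 13 lower genes and none higher. Complex I held 8 of them, complex III 1 (Uqcr11), complex IV 2 (Cox8a and Cox6a1) and complex V 2 (Atp5e and Atp5j2). The 16.5% compare with 5.45% of all genes tested and 12.4% of like-length genes called lower. Of all genes 4.10% were higher. This comparison and that of ConvD with GF on chow use the same 3 GF chow livers, so that their values are not independent.

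Atp5e had 72.2, 72.9 and 74.6 CPM in GF HF/HS, below the GF chow values of 92.4 to 145 (-0.67 ± 0.13, adjusted p = 0.00855). Ndufa2 had 48.1, 46.8 and 50.1 CPM against 62.0 to 102 (-0.71 ± 0.14, adjusted p = 0.0101). Ndufs7 had 44.1, 43.6 and 43.8 CPM against 78.1, 56.4 and 64.3 (-0.59 ± 0.12, adjusted p = 0.0102). The groups did not overlap for these 3 genes, and the GF chow libraries varied more than the GF HF/HS ones, with an SD of 11.0 against 0.266 CPM for Ndufs7. GF chow mouse 1 was the highest liver for all 3, and it also had the highest Fos, an immediate early gene, at 129 CPM against 28.9 in GF chow mouse 2. The 3 calls held with each of the 6 libraries left out in turn.

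Ndufc1, a small membrane arm subunit of complex I, had 28.8, 25.8 and 29.4 CPM on chow and 22.5, 21.1 and 18.6 on HF/HS (-0.43 ± 0.09, adjusted p = 0.0127). Cox6a1, the liver isoform whose promoter is shown above, had 213, 160 and 192 CPM on chow and 139, 147 and 147 on HF/HS (-0.38, adjusted p = 0.0451). Uqcr11, a small complex III subunit, had 145, 114 and 142 CPM and 99.7, 102 and 99.2 (-0.42, adjusted p = 0.0298). None of these overlapped between the diets.

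The remaining calls were Ndufb2 (-0.49), Ndufb3 (-0.58), Ndufb9 (-0.39), Ndufb11 (-0.39), Ndufs6 (-0.37), Cox8a (-0.46) and Atp5j2 (-0.55), with adjusted p from 0.0172 to 0.0493. The positive genes with the smallest p were Cox7a1 (0.83 ± 0.36), Sdhd (0.24 ± 0.13), Uqcrb (0.22 ± 0.14) and Sdha (0.18 ± 0.12), none called. The fold change was negative for 66 genes, with a median of -0.13 beside -0.15 in like-length genes. Of the 2630 like-length genes 1826 were negative, and of all 12377 genes 6338. CPM ranges did not overlap for 30 genes lower and 2 higher, against 16.2% and 15.3% of all genes. With the length trend removed, 2 genes were lower (Ndufs7 and Cox4nb, the latter by -0.30) and 2 higher (Uqcrb and Ndufa6), against 2.67% and 2.66% of all genes, and the median was 0.08. The count was 3 to 19 with single libraries left out. It was 4, 4 and 3 without GF HF/HS mice 1, 2 and 3, where 1.40%, 1.49% and 1.18% of all genes were lower, and 7, 19 and 6 without GF chow mice 1, 2 and 3, where 2.87%, 6.50% and 5.52% were.

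In ConvR livers Ndufa10 and Sdha were higher on HF/HS and Cox7a2l was lower. The 2 higher genes (2.53%) compare with 6.75% of all genes tested and the 1 lower gene (1.27%) with 7.80%, both below the background. Among like-length genes 3.27% were higher and 13.7% lower.

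Ndufa10 had 71.7, 77.9 and 92.2 CPM on chow and 124, 114 and 101 on HF/HS, a log2 fold change of 0.49 ± 0.10 (adjusted p = 0.00498). Sdha had 378, 355 and 512 CPM on chow and 580, 577 and 562 on HF/HS (0.47 ± 0.12, adjusted p = 0.0171). Cox7a2l had 86.9, 82.4 and 88.5 CPM on chow and 71.2, 74.3 and 72.9 on HF/HS (-0.24 ± 0.06, adjusted p = 0.0241). None of the 3 overlapped between the diets, and ConvR chow mouse 3 lay nearest to the HF/HS values of Sdha. In GF livers the same contrasts were -0.004 ± 0.10, 0.18 ± 0.12 and -0.02 ± 0.06, with none called.

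The median over the 79 genes was 0.06, and 53 were positive, while like-length genes had a median of -0.12. Of the 2630 like-length genes 891 were positive, and of all 12377 genes 5941. CPM ranges did not overlap for 7 genes higher and 6 lower, against 15.1% and 17.2% of all genes. The next smallest p higher were those of Atp5a1, the alpha subunit of ATP synthase (0.30 ± 0.11, adjusted p = 0.0797), and Cox7a1 (0.78 ± 0.32, 0.114). Those lower were Atp5e (-0.38 ± 0.13, 0.0594), Ndufb11 (-0.22 ± 0.10, 0.174) and Ndufb2 (-0.23 ± 0.11, 0.180). Without ConvR chow mice 1 and 2, which left 1 ConvR chow library, the median was -0.13, near the -0.17 of like-length genes. Without ConvR chow mouse 3, 13 genes (16.5%) were higher, against 8.25% of all genes, and 1 was lower, where 1106 of all genes were. Without mouse 1 a single gene was higher, where 471 of all genes were.

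The count in this comparison changed with the scaling. With the length trend removed, 25 genes were called higher and none lower, against 6.72% of all genes higher and 7.11% lower, and the median was 0.23. The 25 came from complexes I (9), II (2), III (2), IV (6) and V (6) and included Cox5b (0.47), Cox6b1 (0.38), Ndufa5 (0.47), Ndufb8 (0.45), Uqcrb (0.53) and Sdhb (0.42). Without normalization factors 22 were higher (27.8%) and 0 lower, where 22.2% of all genes were higher. On log2(TPM + 1) 65 were higher (82.3%, against 47.1% of all genes) and 0 lower with a median of 0.47, where the median over all genes tested was itself 0.30, so the shift relative to all genes was smaller. On that scale Cox7a2l was positive, at 0.16.

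**Figure D4:**
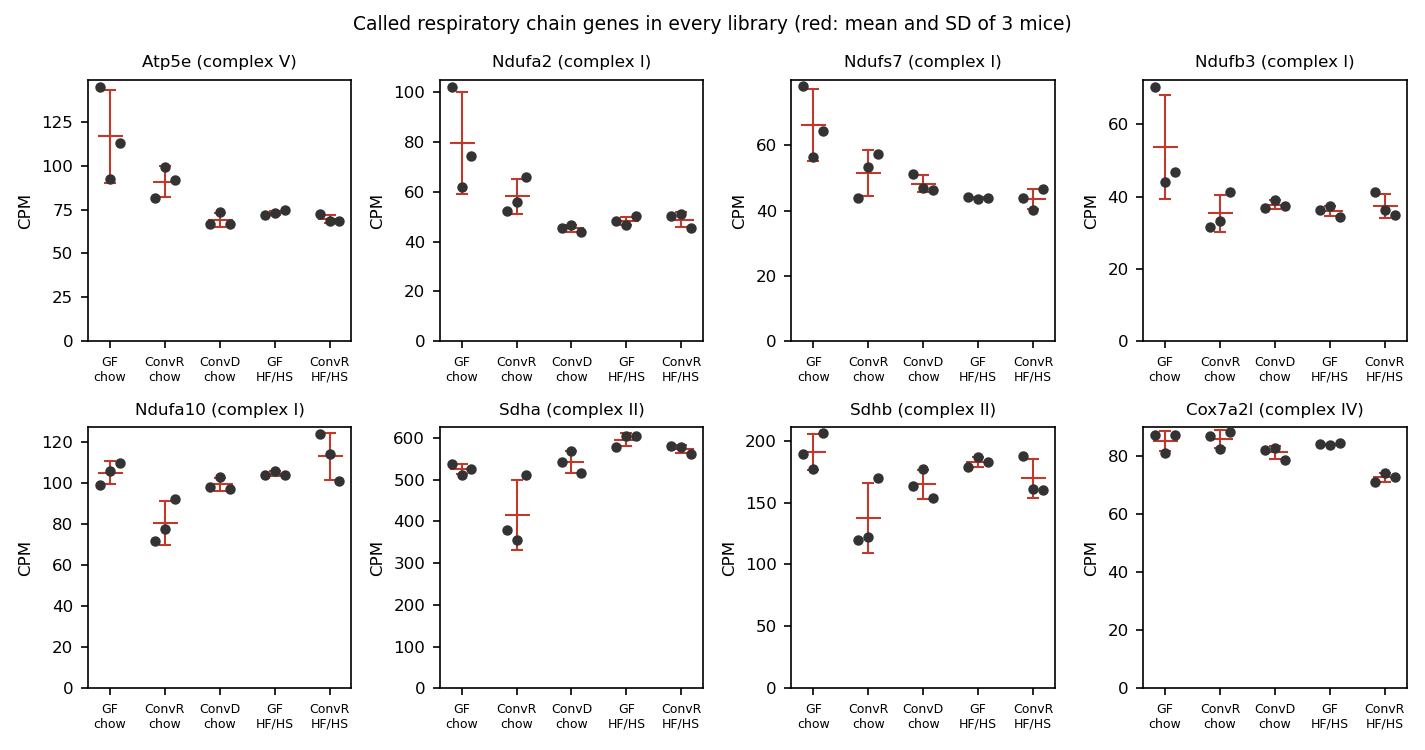
CPM of 8 called respiratory chain genes in each of the 15 livers (points), with mean and SD of 3 mice in red. For Atp5e and Ndufa2 the GF and ConvR chow libraries lie above the rest, for Ndufa10 the ConvR chow libraries lie lowest, and for Cox7a2l the ConvR HF/HS libraries (71.2 to 74.3) lie lowest.

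On HF/HS, ConvR and GF livers did not differ in any called respiratory chain gene, where 0.881% of all genes were called higher and 0.735% lower. The DESeq2 Wald test called 1 lower, against 1.78% of all genes. Unadjusted p from edgeR was below 0.05 for 0 genes higher and 3 lower, where 928 and 948 of all 12377 genes were. The 3 were Atp5sl (-0.29 ± 0.09, adjusted p = 0.105), Cox7a2l (-0.21 ± 0.06, 0.120) and Ndufb10 (-0.21 ± 0.09, 0.305), followed by Atp5g1 (-0.18 ± 0.10, 0.408). The highest were Cox7a1 (0.58 ± 0.30), Ndufa1 (0.18 ± 0.13), Ndufs5 (0.15 ± 0.12) and Cox6a1 (0.14 ± 0.11). The median was -0.04, close to the -0.03 of like-length genes. CPM ranges did not overlap for 2 genes higher and 14 lower, against 12.7% and 14.6% of all genes. Removal of the length trend called no member here, and 1.32% of all genes higher and 0.695% lower.

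Whether colonization acts differently on the 2 diets was tested as an interaction, positive where ConvR minus GF was higher on HF/HS than on chow. No respiratory chain gene was called by edgeR, and 0% of all 12377 genes were. The unadjusted edgeR p was below 0.05 for 16 of the 79 genes positive and 1 negative, where 770 and 803 of all genes were. The DESeq2 Wald test called 1 positive (1.32% of the 76 members given an adjusted p, against 1.70% of all 5233 such genes). With limma on log2(TPM + 1) 30 were positive (38.0%), against 9.42% of all genes. The interaction was positive for 74 genes and for all 37 of complex I, with a median of 0.21 beside 0.02 in like-length genes. It was positive for 1401 of the 2630 like-length genes and 6165 of all genes.

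The smallest p in the interaction belonged to Ndufa10 (0.50 ± 0.14, adjusted p = 0.215), Cox6a1 (0.51 ± 0.16, 0.240), Ndufb3 (0.66 ± 0.21, 0.248) and Cox7a2 (0.31 ± 0.12, 0.310). The 5 negative genes were Cox7a2l (-0.22 ± 0.09), Atp5g1 (-0.09 ± 0.14), Sdhd (-0.10 ± 0.18), Atp5g2 (-0.06 ± 0.16) and Cox7a1 (-0.05 ± 0.46). Without ConvR chow mice 1 and 2 the median interaction was 0.02. Without ConvR chow mouse 3 it was 0.34, with 5 genes (6.33%) called positive, against 1.66% of all genes.

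Of the 10 core and catalytic subunits followed as such, Sdhb was lower in ConvR than GF on chow and Sdha higher on HF/HS in ConvR, and Ndufv1, Ndufs1, Uqcrc1, Uqcrfs1, Cox4i1, Cox5b, Atp5a1 and Atp5b were called in no comparison. Atp5b had 1388, 1177 and 1268 CPM in GF chow and 931, 987 and 1195 in ConvR chow, -0.30 ± 0.11 (adjusted p = 0.121). Cox4i1 had 287, 224 and 243 CPM in GF chow and 179, 203 and 213 in ConvR chow, which did not overlap (-0.34 ± 0.10, adjusted p = 0.0572).

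Gene length moved with several of these results. Across all genes tested, the Spearman correlation of log2 fold change with gene length was 0.30 for ConvD against GF on chow, 0.30 for HF/HS against chow in GF and 0.23 in ConvR livers, and across the 79 genes 0.27, 0.24 and 0.25, given as descriptions over genes that share libraries. The deviation of a library's log2 CPM from the mean of all libraries correlated with gene length at -0.34 to 0.02 in GF and ConvR chow and at 0.08 to 0.28 in the other 9. What sets this trend was not tested.

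Against other genes of the same length class, respiratory chain genes up to 500 bases had a similar median in GF livers on HF/HS. The 15 members of that class had a median of -0.32 with 5 lower (33.3%), and the 75 others -0.38 with 33 lower (44.0%). In ConvD against GF the medians were -0.36 and -0.32, with 33.3% and 30.7% lower. In ConvR livers on HF/HS the 15 members had a median of -0.04 with none lower, and the 75 others -0.37 with 33 lower. In ConvR against GF on chow the members of 500 to 1000 bases had -0.28 and others of that class -0.06. Over 1000 bases the 25 members had medians of -0.14 in ConvD against GF and -0.08 on HF/HS in GF livers, with 20 negative in each, beside 0.007 and 0.005 for the others. These differences between sets were not tested.

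**Figure D5:**
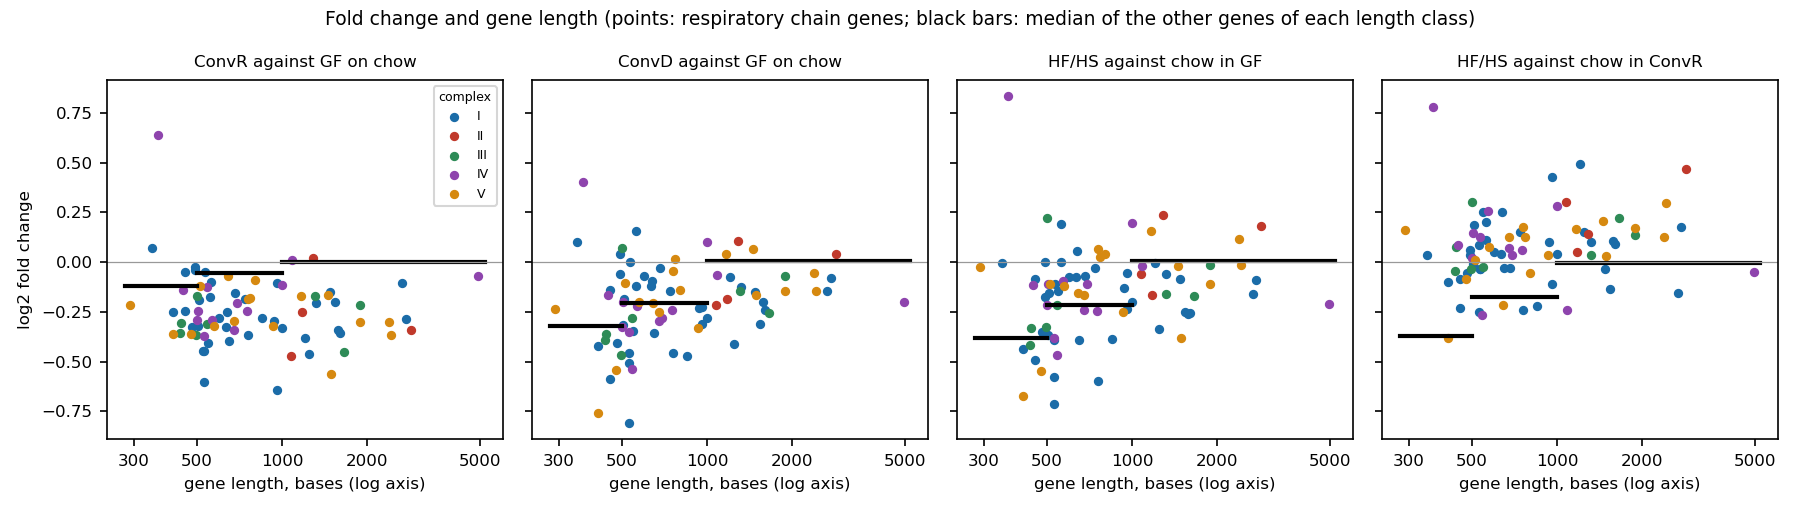
Log2 fold change against gene length in bases (log axis) for the 79 respiratory chain genes, coloured by complex, in 4 comparisons; black bars are medians of all other tested genes of up to 500, 500 to 1000 and over 1000 bases. Up to 500 bases, the medians of points and others lie close in ConvD against GF (-0.36 and -0.32) and in HF/HS against chow in GF livers (-0.32 and -0.38) and apart in ConvR livers on HF/HS (-0.04 and -0.37); over 1000 bases, 20 of 25 points are negative in the first 2 of these.

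Levels in TPM gave a different order of groups from CPM. Summed TPM of the 79 genes was 21937 ± 1378 in GF chow, 16711 ± 2718 in ConvR chow, 20696 ± 993 in ConvD chow, 20267 ± 235 in GF HF/HS and 23124 ± 2282 in ConvR HF/HS (SD, n = 3). ConvR chow had the lowest group mean on both scales. In summed TPM, ConvR chow mice 1 and 2 (15104 and 15179, or 1.51% and 1.52% of TPM) lay below all other libraries. ConvR chow mouse 3 (19849, or 1.98%) was level with ConvD chow mouse 3 (19851). On mean log2 CPM, ConvR chow mouse 3 (6.416) lay above every ConvD and HF/HS library. TPM is not rescaled between libraries, and on log2(TPM + 1) the median over all genes tested was -0.10 for ConvR against GF on chow, 0.10 for ConvD against GF, 0.21 for ConvD against ConvR, 0.16 for ConvR against GF on HF/HS and 0.03 for HF/HS against chow in GF. On that scale 29 members (36.7%) were higher in ConvD than in ConvR on chow, with a median of 0.33, where 28.5% of all genes were higher.

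Genes around the chain were followed in lists. Of 18 genes of the TCA cycle and pyruvate dehydrogenase, which supply NADH and succinate, 9 were higher and none lower on HF/HS in ConvR livers, with a median of 0.31, where 6.75% of all genes were higher. Ogdh, a subunit of 2-oxoglutarate dehydrogenase, had 127, 141 and 128 CPM on chow and 185, 199 and 209 on HF/HS (0.59 ± 0.09, adjusted p = 0.0011), and Pdha1 of pyruvate dehydrogenase had 108, 94.4 and 139 against 184, 194 and 161 (0.66 ± 0.12, 0.0033). The groups did not overlap for either. Citrate synthase, Cs, was higher too (0.44 ± 0.11, 0.0174). In GF livers on HF/HS 2 were higher, Dlat (0.58) and Ogdh (0.30), and in ConvD against ConvR on chow 2 were higher, Ogdh (0.51) and Idh2 (0.49). With ConvR chow mice 1 and 2 left out, 1 ConvR chow library remained. The list median on HF/HS in ConvR livers was then 0.11, with Ogdh at 0.63, Pdha1 at 0.37 and Cs at 0.29. The other genes called there were lower still, from Sucla2 at 0.089 to Suclg2 at 0.25. In ConvD against ConvR, Ogdh was then at 0.56 and Idh2 at 0.27.

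Of 19 electron carriers and feeders, 5 (26.3%) were higher and 1 (5.26%) lower on HF/HS in ConvR livers, against 6.75% and 7.80% of all genes. Gpd2, the mitochondrial glycerol-3-phosphate dehydrogenase that feeds ubiquinone, had 38.3, 26.8 and 39.4 CPM on chow and 67.7, 73.3 and 57.4 on HF/HS (0.92 ± 0.16, adjusted p = 0.00239), and was also higher in GF livers (0.61 ± 0.16, 0.0310). Coq10a, a coenzyme Q binding protein, and Etfdh, which passes electrons from fatty acid oxidation to ubiquinone, were higher by 0.62 and 0.32, and Cycs, cytochrome c, by 0.39 ± 0.12 (0.0367). Prodh, proline dehydrogenase, was lower (-0.59 ± 0.14, 0.00994). In GF livers on HF/HS, Coq7 (-0.56), Etfb (-0.62) and Coq2 (-0.36) were lower, 3 of 19 (15.8%) against 5.45% of all genes. Without ConvR chow mice 1 and 2, Coq10a was at 0.65, Gpd2 at 0.74 and Cycs at 0.12 on HF/HS in ConvR livers. Etfdh was then at 0.16, Adck3, the remaining gene called higher, at 0.18 and Prodh at -0.50.

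Coq7 was lower in ConvR (-0.53) and in ConvD (-0.49) than in GF livers on chow, and Etfb in ConvD (-0.58). Adck3, a kinase-like protein of coenzyme Q synthesis, was lower in ConvR than in GF on chow (-0.82 ± 0.19) and higher in ConvD than in ConvR (0.80 ± 0.19), 2 comparisons that share the ConvR chow livers. Coq10a was lower (-0.37) and higher (0.42) in the same comparisons. Without ConvR chow mice 1 and 2, which left 1 ConvR chow library, Adck3 was at -0.35 and 0.33 and Coq10a at -0.41 and 0.45.

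Of 31 assembly factors, 4 (12.9%) were lower on HF/HS in GF livers, 2 (6.45%) on HF/HS in ConvR livers and 2 (6.45%) in ConvD against GF on chow, against 5.45%, 7.80% and 3.34% of all genes, and no other call was made in the 7 comparisons. Cox17 (-0.86 ± 0.17, adjusted p = 0.0102), a copper chaperone for complex IV, Foxred1 (-0.46), Surf1 (-0.34) and Ndufaf3 (-0.44) were lower on HF/HS in GF livers. On HF/HS in ConvR livers Foxred1 (-0.32) and Ndufaf3 (-0.42) were lower. Without ConvR chow mice 1 and 2 these were at -0.44 and -0.66. In ConvD against GF, Cox17 (-0.74) and Ndufaf3 (-0.53) were lower. Cox17 had 30.3, 17.0 and 18.6 CPM in GF chow, 12.7, 12.1 and 11.3 in GF HF/HS and 13.1, 13.8 and 12.3 in ConvD chow, with no overlap. The 5 further subunit genes whose names fall outside the patterns gave no call in any of the 7 comparisons by edgeR. Unadjusted p was below 0.05 for 1 lower gene in each of ConvR against GF on chow, ConvD against GF and HF/HS against chow in GF. Of all 12377 genes, 1507, 1645 and 1757 were lower at that p.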

How the data were processed

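RNA-seq of polyadenylated RNA was analysed in 15 mouse livers, 5 groups of 3 mice, as grouped by the labels. Per the submitters' processing notes, reads were aligned with Bowtie2 to mm9 and quantified with RSEM 1.2.23. The deposited expected counts are RSEM estimates per gene, not scaled between libraries. The deposited TPM values are scaled by the authors within each library by length and depth, and gene lengths are as in the deposited files. Libraries held 14737578 to 21794811 expected counts, and few counts limit Cox7a1 and Ndufa4l2.

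Expected counts were rounded and fitted with edgeR 4.0.16 in R 4.3.3 over all 15 libraries (filterByExpr with minimum count 10, TMM, 5 group means, 10 residual degrees of freedom, two-sided quasi-likelihood F test). Benjamini-Hochberg adjustment covered all 12377 genes tested, with calls at 0.05. The biological coefficient of variation was 0.149. Log2 CPM used a prior count of 2, and each standard error was the size of the log2 fold change divided by the root of its F value. Alternatives were DESeq2 1.42.0 size factors and its Wald test, no normalization factors, no filter, limma 3.58.1 on log2(TPM + 1), the compared groups alone, a replicate block, each library left out, ConvR chow mice 1 and 2 left out, and removal of a length trend. That trend was a lowess fit in each library of log2 CPM, relative to the gene's mean over libraries, on gene length (span 0.5). It was fitted on genes of mean log2 CPM of 3 or more. The fits were tested on simulated data. Promoter motifs were searched with Python 3.11.15.

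The members, lists and tests were chosen with earlier results of these data known. Genes named were, in each comparison, the 4 with the smallest p each way, isoform sets, 10 core subunits, the highest, lowest, shortest and longest of each complex, matched genes that are not subunits, and up to 3 genes per other list, with the other called genes added after their values were seen.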

Additional observations from a re-analysis of the deposited data

How the results depend on the processing

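For ConvR against GF on chow, 3 genes were called, all lower, where 268 of all genes tested were lower. Lower calls numbered 5 with DESeq2 size factors and 5 without normalization factors, where 294 and 356 of all genes were lower. The DESeq2 Wald test called 20 and log2(TPM + 1) 27, where 578 and 777 of all genes were lower. With the length trend removed 0 were called, where 235 of all genes were lower. The compared groups alone gave 0, and 0 of all genes, so that fit cannot show a loss particular to these genes. With single libraries left out the count was 0 to 38. The median of -0.25 was -0.40 on log2(TPM + 1), -0.14 with the length trend removed, -0.077 without ConvR chow mice 1 and 2, and -0.38 to -0.19 with single libraries left out. For ConvD against GF, 11 were called, all lower, where 414 of all genes tested were lower. Lower calls numbered 5 without normalization factors, 21 by DESeq2, 3 on log2(TPM + 1) and 2 with the length trend removed. Over all genes 226, 666, 105 and 167 were lower in these settings. The groups alone gave 0, where 11 of all genes were called. With single libraries left out the count was 2 to 24. The median of -0.20 was -0.050 on log2(TPM + 1) and -0.025 with the length trend removed. For ConvD against ConvR, none was called, where 681 of all genes tested were. Without normalization factors 3 were higher, on log2(TPM + 1) 29 and with the length trend removed 3. Over all genes 801, 3522 and 190 were higher in these settings. DESeq2 called 3, where 1109 of all genes were called. With single libraries left out the count was 0 to 9. The median of 0.04 was 0.14 without normalization factors, 0.33 on log2(TPM + 1) and 0.15 with the trend removed. It was -0.14 without ConvR chow mice 1 and 2 and -0.048 to 0.16 with single libraries left out.

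For ConvR against GF on HF/HS, DESeq2 called 1, and the median of -0.04 was 0.14 without normalization factors and 0.17 on log2(TPM + 1), where all genes moved too. For HF/HS against chow in ConvR, 3 were called, where 1802 of all genes tested were. Higher calls numbered 22, 65 and 25 without normalization factors, on log2(TPM + 1) and with the length trend removed. Over all genes 2747, 5831 and 832 were higher in these settings. The groups alone gave 0, where 841 of all genes were called. With single libraries left out the count was 1 to 14. The median of 0.06 was 0.26 without normalization factors, 0.47 on log2(TPM + 1) and 0.23 with the trend removed. It was -0.13 without ConvR chow mice 1 and 2 and 0.003 to 0.17 with single libraries left out. In GF livers 13 were called, all lower, where 675 of all genes tested were lower and 507 higher. With the length trend removed 4 were called, where 331 of all genes were lower and 329 higher. On log2(TPM + 1) 5 were called and with the groups alone 0. Counts over all genes are not given for those settings, so they cannot show a loss particular to these genes. With single libraries left out the count was 3 to 19. The median of -0.13 was 0.083 with the trend removed. For the interaction, DESeq2 called 1, log2(TPM + 1) 30, and single libraries left out 0 to 5, and the median of 0.21 was 0.44 without normalization factors, 0.55 on log2(TPM + 1), 0.019 without ConvR chow mice 1 and 2 and 0.14 to 0.34 with single libraries left out. The cause of these changes was not tested. A fit of the compared groups alone, with 3 mice each, leaves fewer residual degrees of freedom.

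The replicate block gave 0 called genes in ConvR against GF on chow, 8 in ConvD against GF, 9 in HF/HS against chow in GF and 3 in ConvR livers. Over all genes it called 402 in ConvR against GF on chow, 489 in ConvD against GF and 1617 on HF/HS in ConvR livers. For HF/HS against chow in GF the count over all genes is not given, so the 9 cannot show a loss particular to these genes. The numbers do not pair the mice: correlations of same-numbered deviations were -0.230 to 0.246, 2 of 18 pairs were above 0.1, and 2 of 15 libraries were closest to a library of their own number.

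Some named genes, most of them uncalled, changed sign with the setting. For ConvR against GF on chow, Cox7a2l was -0.036 without normalization factors, -0.13 on log2(TPM + 1), and from -0.021 to 0.042 with single libraries left out. Sdhd was -0.024, -0.12 and ranged from -0.14 to 0.10 with single libraries left out, and Ndufa3 was -0.056 on log2(TPM + 1) and ranged from -0.081 to 0.21. For ConvD against GF, Sdhd ranged from -0.004 to 0.19 and Ndufa3 from -0.051 to 0.25. On log2(TPM + 1), Ndufs8 was 0.066 in ConvD against ConvR, Atp5g1 was 0.022 in ConvR against GF on HF/HS, and in HF/HS against chow in ConvR Cox7a2l was 0.16, Atp5e 0.021, Ndufb11 0.19 and Ndufb2 0.17. Ndufb2 was 0.016 there with the length trend removed. In the interaction, without normalization factors and on log2(TPM + 1), Atp5g1 was 0.13 and 0.25, Sdhd 0.12 and 0.25, and Atp5g2 0.16 and 0.27. Cox7a2l was 0.13 on log2(TPM + 1). With single libraries left out, Sdhd ranged from -0.18 to 0.064 and Atp5g2 from -0.15 to 0.092. Among these, Cox7a2l on HF/HS in ConvR livers (-0.24) had been called, and Atp5e (-0.38), Ndufb11 (-0.22) and Ndufb2 (-0.23) there were uncalled but not near 0.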

Other observations

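Regulators of mitochondrial gene expression were followed as a list of 19 genes. Gabpa, a subunit of the GABP factor, had 32.5, 36.1 and 37.4 CPM in GF chow, 50.8, 48.3 and 46.3 in ConvD chow and 43.7, 48.5 and 51.6 in GF HF/HS, and the ranges of GF chow and either other group did not overlap. It was higher in ConvD than in GF (0.46 ± 0.09, edgeR adjusted p = 0.0135), in ConvD than in ConvR on chow (0.40 ± 0.09, 0.0236) and on HF/HS in GF livers (0.44 ± 0.09, 0.0102). Yy1 was higher in ConvD than in GF (0.35 ± 0.09, 0.0386) and on HF/HS in GF livers (0.50 ± 0.09, 0.00652). Ppara, a nuclear receptor for fatty acids, had 143, 195 and 216 CPM in GF chow and 383, 330 and 353 in GF HF/HS, with no overlap, and was higher on HF/HS in GF (0.94 ± 0.16, 0.00481) and in ConvR livers (0.83 ± 0.16, 0.00353). Ppargc1b, a coactivator of mitochondrial genes, was higher on HF/HS in ConvR livers (1.24 ± 0.32, 0.0191). Polg2, a subunit of the mitochondrial DNA polymerase, was lower in ConvR than in GF on chow (-0.76 ± 0.18, 0.0332). Without ConvR chow mice 1 and 2, which left 1 ConvR chow library, Ppara was at 0.77 and Ppargc1b at 0.95 on HF/HS in ConvR livers. Polg2 was then at -0.33 in ConvR against GF on chow and Gabpa at 0.32 in ConvD against ConvR.

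Among 7 genes of ATP export and uncoupling that were tested, Ucp2 was the gene called. It had 14.1, 15.8 and 23.4 CPM in GF chow, 30.0, 36.6 and 26.8 in ConvR chow, 20.0, 21.1 and 24.5 in ConvD chow, 20.8, 19.5 and 18.6 in GF HF/HS and 31.7, 46.5 and 31.4 in ConvR HF/HS. ConvR livers were above GF livers on chow (0.80 ± 0.19, adjusted p = 0.0337) and on HF/HS (0.90 ± 0.19, 0.0305), with no overlap on either diet. The chow difference was 0.58 without ConvR chow mice 1 and 2, which left 1 ConvR chow library. Ucp2 is expressed in Kupffer cells and other leukocytes as well as in hepatocytes, and their part in this difference was not tested. Kupffer cell markers summed to 379 to 500 CPM in GF chow, 491 to 603 in ConvR chow, 416 to 508 in GF HF/HS and 439 to 710 in ConvR HF/HS.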
